A study of Mus musculus with 4 samples.

Results

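Cytosolic ribosomal protein genes encode the proteins that, with ribosomal RNA, build the large and the small subunit of the ribosome outside mitochondria. A total of 218 of the 28853 probe sets counted on the array belong to them, for 62 of 19938 genes. A probe set is a group of probes summarised to 1 value. Members are all probe sets annotated with a single symbol that starts with Rpl or Rps and a number, together with Rplp0, Rplp1, Rplp2 and Rpsa, and kinases of the Rps6k group, Rps19bp1 and names with -ps were left out. By these names 33 genes (127 probe sets) encode large subunit proteins, 21 genes (82 probe sets) encode small subunit proteins and 8 genes (9 probe sets) are paralogs. Within the family members were chosen by name alone, but the family itself was picked from earlier results of these same arrays, with its differences in MPPs known, so all values here are descriptions.

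Gene expression was measured on 4 arrays, 1 for each of Bcl11a-/- MPPs, WT MPPs, Bcl11a-/- GMPs and WT GMPs. Fetal liver cells from Bcl11a-/- or WT fetuses were injected into B6.SJL mice given a lethal dose of 1200 rad, and donor-derived cells were sorted from recipient BM, per the labels after 4 weeks. MPPs (multipotent progenitors) were sorted as LSK cells without CD150, and GMPs (granulocyte-macrophage progenitors) came from the same BM. All 4 populations therefore developed in irradiated adult recipients from fetal donor cells, and the Bcl11a-/- allele lacks the first exon of Bcl11a, a transcription factor gene needed for lymphoid development. Sorted cells of a genotype were combined for RNA extraction, and how many mice each pool drew on is not stated in the sources used here. Since each condition was measured once, differences could not be set against a spread between replicates, and no test was made.

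Ribosomal proteins are made in matched amounts in dividing cells, and loss of 1 copy of some of them impairs red blood cell formation in humans. Their mRNAs are known for a terminal oligopyrimidine (TOP) tract, a C followed by further C or T at the very start of the transcript, through which growth signals set their translation. Several ribosomal proteins that are not built into ribosomes can bind Mdm2, the ligase that degrades p53.

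Values are log2 signals, so a difference of −1 is a signal that is 2-fold lower. Over all probe sets counted, the SD of log2 signal was 2.10 in Bcl11a-/- MPPs, 2.21 in WT MPPs, 2.28 in Bcl11a-/- GMPs and 2.30 in WT GMPs. The probe set values of the arrays thus did not have equal distributions. Quantile normalization is stated for them, but not the step at which it was applied. Bcl11a itself had a log2 signal of 8.64 in Bcl11a-/- MPPs and 9.89 in WT MPPs, and 7.77 in Bcl11a-/- GMPs and 8.60 in WT GMPs. The median of 9 GMP markers was 8.40 in Bcl11a-/- MPPs, 9.18 in WT MPPs and about equal in Bcl11a-/- GMPs (12.1) and WT GMPs (12.1). The GMP markers did not move together in MPPs. Elane (−2.44), Prtn3 (−2.65), Ctsg (−2.25) and Ms4a3 (−2.68) were over 2-fold lower in Bcl11a-/- MPPs than in WT MPPs, while Cebpe (0.87) and Fcgr3 (0.47) had differences above 0, and none of the 9 was over 2-fold different in GMPs. The median of 5 mature neutrophil markers was 11.7 in Bcl11a-/- MPPs, 11.4 in WT MPPs, 12.2 in Bcl11a-/- GMPs and 12.6 in WT GMPs, so these markers were well above the array medians on all 4 arrays, MPPs included. Of 4 measured B cell markers, 4 were over 2-fold lower in Bcl11a-/- MPPs than in WT MPPs, and 2 of them, Cd79a (−2.19) and Vpreb1 (−1.72), were also over 2-fold lower in Bcl11a-/- GMPs than in WT GMPs. Of 4 measured erythroid markers, 3 were over 2-fold higher in Bcl11a-/- GMPs than in WT GMPs, and none in Bcl11a-/- MPPs than in WT MPPs. The part of these other cell types in the values below was not tested, and in sorted bulk populations fewer cells of a type and less RNA per cell cannot be told apart.

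The start of the transcript is where the TOP tract lies, so windows of 30 bases around annotated starts are shown for selected genes. Of those with a listed start and a mean over 2-fold lower in Bcl11a-/- MPPs, Rpl5, Rplp0, Rpl9, Rps3 and Rps10 are shown. Rpl19, with a run as defined below just before each annotated start, and Rpl41, with none, are not shown. Rps9, whose probe sets disagreed, and some genes close to 0 in the same comparison (Rps6, Rps18, Rps12) are shown as well. The windows are examples, and the shares over subunit genes with a listed start follow them. Capitals mark a pyrimidine run, here a C followed by at least 4 bases that are each C or T, on the gene's strand and starting within 5 bases of the annotated start. The windows are from RefSeq (GRCm38.p6), 15 bases to each side of the start.
Rpl5 (chr5:107900513-107900542, plus strand): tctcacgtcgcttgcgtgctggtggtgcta
Rplp0 (chr5:115559452-115559481, plus strand): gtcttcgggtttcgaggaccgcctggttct
Rpl9 (chr5:65391417-65391446, minus strand): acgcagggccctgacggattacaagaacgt
Rps3 (chr7:99483695-99483724, minus strand): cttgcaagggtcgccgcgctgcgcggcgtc
Rps10 (chr17:27635230-27635259, minus strand): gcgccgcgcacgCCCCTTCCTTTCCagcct
Rps9 (chr7:3704026-3704055, plus strand): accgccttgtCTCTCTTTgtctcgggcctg
Rps6 (chr4:86857353-86857382, minus strand): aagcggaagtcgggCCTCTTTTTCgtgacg
Rps18 (chr17:33955651-33955680, minus strand): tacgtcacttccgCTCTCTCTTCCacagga
Rps12 (chr10:23787195-23787224, minus strand): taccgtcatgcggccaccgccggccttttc

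Such a run was found in 16 of 43 genes for large and small subunit proteins with a listed start (37.2%), against 3767 of 17492 protein-coding genes (21.5%). Among the subunit genes that were over 2-fold lower in Bcl11a-/- MPPs, 2 of 7 had the run (28.6%), against 14 of 36 of the others (38.9%). The 2 were Rps10 and Rpl19. The rule also counts runs that end before the annotated start, as those of Rpl19 do. Such runs lie outside the transcript as annotated, so these shares are not shares of TOP tracts. Of the 62 genes, 12 had no start in the table used. A window without capitals says only that no such run starts within 5 bases of the annotated start, and a run farther away, as at the end of the Rps12 window, is not marked or counted. Rps9, with a mean difference of −0.96, is counted among the others.

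In MPPs, ribosomal protein probe sets were lower or little different in Bcl11a-/- cells, and none was over 2-fold higher. Of the 218 members, 40 (18.3%) were over 2-fold lower in Bcl11a-/- MPPs than in WT MPPs, against 2.51% of all probe sets, and 0 were over 2-fold higher, against 1.39% of all probe sets. The median difference was −0.22 over members and 0.05 over all probe sets, and members ranged from −2.51 to 0.29. Ribosomal protein signals are high, however, and other probe sets with high signal were often lower too. Among probe sets with a mean log2 signal of at least 10, 39 of 201 members (19.4%, median −0.22) were over 2-fold lower, and so were 126 of 902 probe sets with no ribosomal protein symbol (14.0%, median −0.21). Of these 902, those with a single symbol gave 94 of 555 (16.9%, median −0.28). The share of members that were lower was thus somewhat above the shares of other bright probe sets. The mean that defines bright includes the GMP arrays. Probe sets high mainly in GMPs therefore entered the comparison, such as that of Ms4a3 (−2.68 in MPPs). Members and other bright probe sets were also not matched in signal. These shares therefore cannot show whether members were lower more often than probe sets of equal MPP signal. The MPP difference of the members also depended on scaling. After the Bcl11a-/- and WT MPP arrays were quantile normalized anew to each other, 23 members were over 2-fold lower and the median was −0.082. After centring by a lowess curve on signal, 28 were and the median was −0.062. The shares of all probe sets and of other bright probe sets that were lower were not computed under these scalings. Whether the excess of members over them changed is therefore not known.

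In GMPs, 0 of the 218 members were over 2-fold lower and 0 over 2-fold higher in Bcl11a-/- cells, against 0.35% and 0.319% of all probe sets. The median difference was 0.02 over members and 0.01 over all probe sets. A total of 184 members lay within 0.1 of 0 in GMPs, and 51 did so in MPPs.

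**Figure D1:**
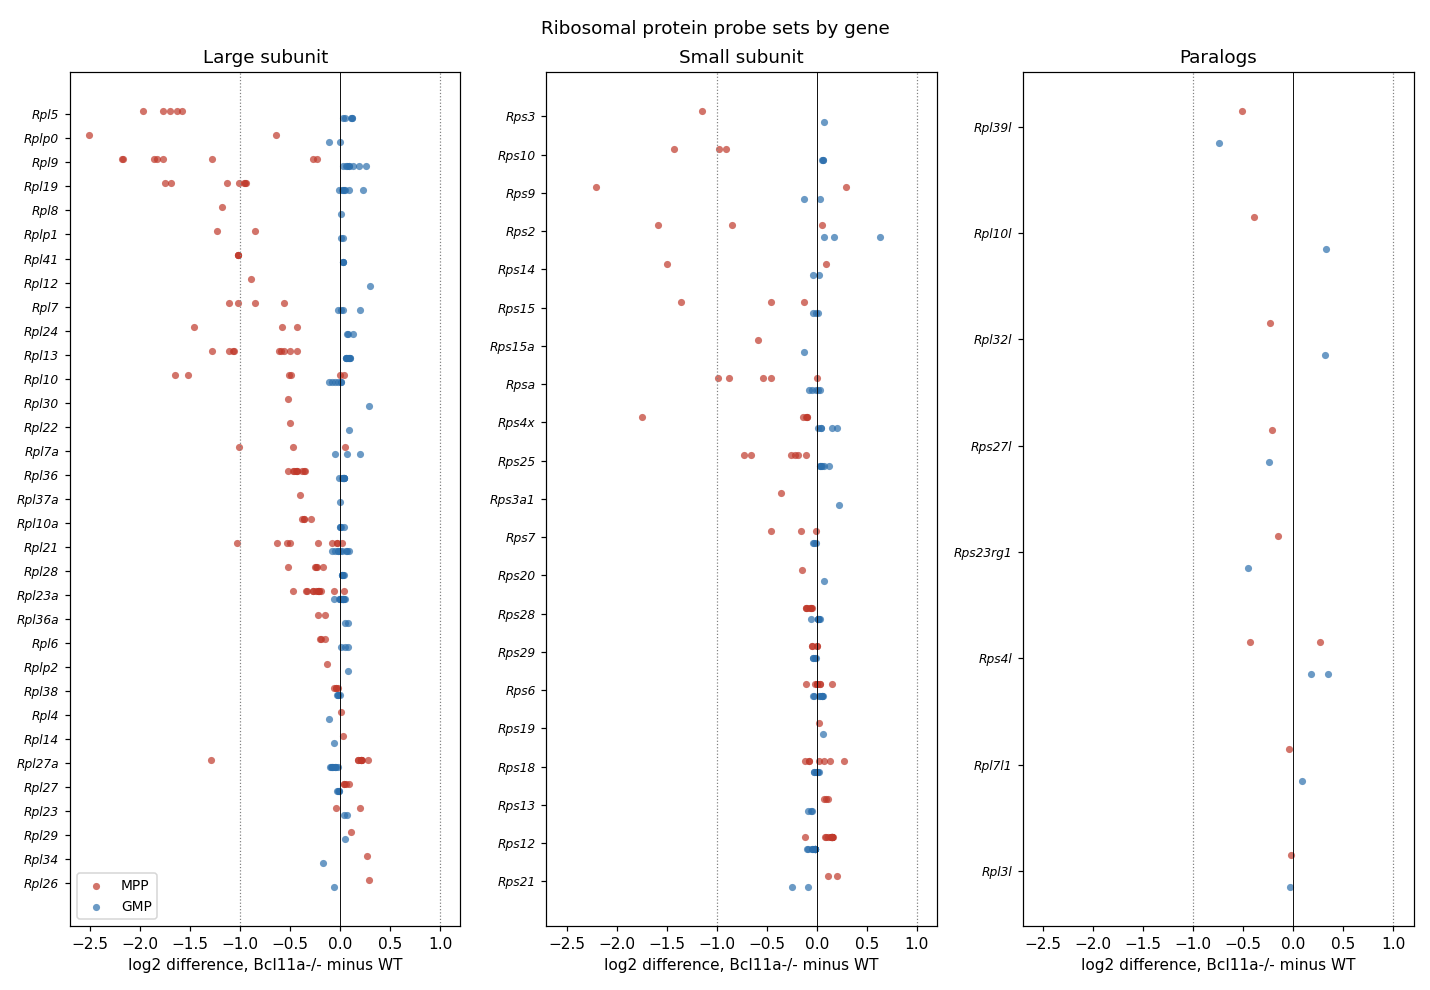
Log2 difference in signal, Bcl11a-/- minus WT, of each of the 218 ribosomal protein probe sets (x axis), by gene (y axis), in MPPs (red) and GMPs (blue), with 1 array per condition. Dotted lines mark 2-fold. No GMP point is past 2-fold, and 40 MPP points lie left of −1 with none right of 1.

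Rpl5, which carries the smallest ribosomal RNA into the large subunit and can bind Mdm2, had the lowest mean difference of the 62 genes. Its 5 probe sets had log2 signals of 9.63, 6.72, 9.44, 9.58 and 9.70 in Bcl11a-/- MPPs, against 11.33, 8.70, 11.07, 11.35 and 11.27 in WT MPPs. In GMPs the same probe sets had 11.62, 10.88, 11.93, 12.01 and 11.65 in Bcl11a-/- cells, against 11.59, 10.76, 11.81, 11.91 and 11.61 in WT cells. All 5 were thus lower in Bcl11a-/- MPPs, by −1.58 to −1.98, and the mean difference of −1.73 is 3.32-fold. In GMPs they differed by 0.03 to 0.12. Rpl11, its partner in that particle, has no probe set under its symbol alone and was not analysed here. Rpl23, another large subunit protein that binds Mdm2, had a mean signal of 11.82 in Bcl11a-/- MPPs and 11.74 in WT MPPs, a difference of 0.08.

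The stalk of the large subunit recruits the factors that drive elongation, and its proteins did not behave alike. Rplp0, its base, had 2 probe sets. They had log2 signals of 9.55 and 8.94 in Bcl11a-/- MPPs and of 12.06 and 9.59 in WT MPPs, differences of −2.51 and −0.65, and −2.51 was the lowest value of any member. In GMPs they had 11.77 and 9.41 in Bcl11a-/- cells and 11.88 and 9.41 in WT cells. Rplp1, which binds Rplp0, had 11.80 and 12.13 in Bcl11a-/- MPPs and 12.65 and 13.36 in WT MPPs, with 12.72 and 13.50 in Bcl11a-/- GMPs and 12.69 and 13.49 in WT GMPs. The single probe set of Rplp2, the partner of Rplp1, had 9.41 in Bcl11a-/- MPPs and 9.55 in WT MPPs, with 9.73 in Bcl11a-/- GMPs and 9.65 in WT GMPs. The mean MPP difference was therefore −1.58 for Rplp0, −1.04 for Rplp1 and −0.13 for Rplp2. Rpl12, which lies at the foot of the stalk, had 6.34 in Bcl11a-/- MPPs and 7.23 in WT MPPs, with 7.28 in Bcl11a-/- GMPs and 6.99 in WT GMPs.

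Other large subunit genes were also lower in Bcl11a-/- MPPs. Rpl9 averaged 10.58 in Bcl11a-/- MPPs and 12.03 in WT MPPs over 8 probe sets (−1.45, 2.73-fold), with 12.61 in Bcl11a-/- GMPs and 12.50 in WT GMPs. Rpl19 averaged 11.39 in Bcl11a-/- MPPs and 12.59 in WT MPPs over 7 probe sets (−1.21), with 12.81 in Bcl11a-/- GMPs and 12.75 in WT GMPs. Rpl8, which lies by the site of peptide bond formation, had 10.90 in Bcl11a-/- MPPs and 12.08 in WT MPPs, with 11.98 in Bcl11a-/- GMPs and 11.97 in WT GMPs. For each of these genes the Bcl11a-/- MPP array had the lowest value. WT MPPs too lay below both GMP arrays for Rpl9 and Rpl19, with MPP minus GMP differences of −0.47 and −0.15 in WT cells, but not for Rpl8. Rpl41, the smallest protein of the ribosome, had 12.39 in Bcl11a-/- MPPs and 13.41 in WT MPPs, with 13.25 in Bcl11a-/- GMPs and 13.23 in WT GMPs, and its 3 probe sets have identical values, so they count as 1 measurement. Rpl7 averaged 11.07 in Bcl11a-/- MPPs and 11.95 in WT MPPs, a difference of −0.89.

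At the other end, Rpl26, whose protein can bind the mRNA of p53, had 12.19 in Bcl11a-/- MPPs and 11.90 in WT MPPs, with 11.70 in Bcl11a-/- GMPs and 11.76 in WT GMPs. Its difference of 0.28 in MPPs was the highest gene mean. Rpl34 had 8.31 in Bcl11a-/- MPPs and 8.05 in WT MPPs (0.27), with 7.90 in Bcl11a-/- GMPs and 8.07 in WT GMPs. Rpl29 differed by 0.10 in MPPs.

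Among small subunit proteins, Rps3, which lines the entry of the mRNA channel, had the lowest mean difference. It had 9.69 in Bcl11a-/- MPPs and 10.84 in WT MPPs (−1.15), with 12.27 in Bcl11a-/- GMPs and 12.19 in WT GMPs, so that WT MPPs too lay below both GMP arrays. Rps10, next to Rps3 on the subunit, had 11.19, 11.86 and 11.82 in Bcl11a-/- MPPs and 12.61, 12.77 and 12.79 in WT MPPs, a mean difference of −1.10. Its GMP difference was 0.06 in each of its 3 probe sets. Rps2, also at the mRNA entry, averaged 9.91 in Bcl11a-/- MPPs and 10.70 in WT MPPs, and 11.62 in Bcl11a-/- GMPs and 11.33 in WT GMPs.

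Several small subunit genes differed little. Rps6, the substrate of S6 kinases, averaged 12.63 in Bcl11a-/- MPPs and 12.62 in WT MPPs over 8 probe sets, with 12.39 in Bcl11a-/- GMPs and 12.36 in WT GMPs. Rps12 averaged 12.93 in Bcl11a-/- MPPs and 12.81 in WT MPPs over 14 probe sets, and Rps21 and Rps13 differed by 0.16 and 0.09 in MPPs. Rps19, the gene most often mutated in Diamond-Blackfan anemia in humans, had 10.75 in Bcl11a-/- MPPs and 10.72 in WT MPPs, with 10.69 in Bcl11a-/- GMPs and 10.62 in WT GMPs.

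By probe set, large subunit members were lower more often than small subunit members in Bcl11a-/- MPPs, with 33 of 127 (26.0%) and 7 of 82 (8.54%) over 2-fold lower and medians of −0.43 and −0.06. The gap in medians was much smaller with 1 value per gene. The mean of the probe sets was then over 2-fold lower for 7 of 33 large subunit genes (21.2%) and 2 of 21 small subunit genes (9.52%), with medians of −0.40 and −0.36, against 2.02% of all genes. No member gene was over 2-fold higher, against 0.908% of all genes. Genes with many probe sets, such as Rps12 with 14 and Rps6 with 8, weigh more in the count by probe set. Over all 62 genes, 48 means were below 0 and 14 above.

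Probe sets of 1 gene often disagreed in MPPs. Among 39 genes with several probe sets, the highest minus the lowest MPP difference had a median of 0.51, against 0.08 for the GMP difference, and it was over 1 in 12 genes in MPPs and in 0 in GMPs. The 40 members that were over 2-fold lower belong to 21 genes (14 large and 7 small subunit). They were all the probe sets of 4 of these genes, among them Rpl5 and Rpl41 with several each, and some of the probe sets of the other 17.

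**Figure D2:**
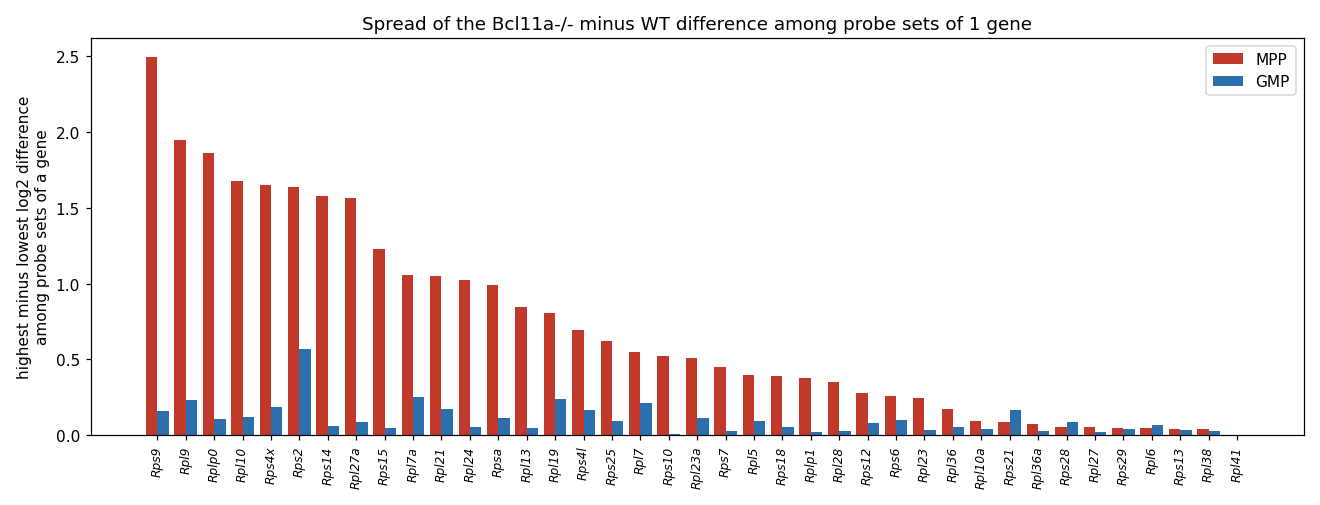
Highest minus lowest log2 difference, Bcl11a-/- minus WT, among the probe sets of each of 39 genes with several (x axis), in MPPs (red) and GMPs (blue). The MPP bar is over 1 in 12 genes, led by Rps9 at 2.50, and the GMP bar is over 1 in none.

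Rps9, which lies at the mRNA entry and affects accuracy, had the widest spread. One of its probe sets had 8.60 in Bcl11a-/- MPPs and 10.80 in WT MPPs, with 11.83 in Bcl11a-/- GMPs and 11.95 in WT GMPs. The other had 12.71 in Bcl11a-/- MPPs and 12.42 in WT MPPs, with 12.70 in Bcl11a-/- GMPs and 12.67 in WT GMPs. The same gene thus gave both −2.20 and 0.29 in MPPs, and 0.29 was the highest value of any member. Rps14, whose loss impairs red cell formation in humans, gave −1.49 (10.46 in Bcl11a-/- MPPs and 11.95 in WT MPPs) and 0.09 (12.92 and 12.83 on the same arrays).

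In Rpl27a and Rps4x a single probe set stood apart. For Rpl27a it had 10.74 in Bcl11a-/- MPPs and 12.03 in WT MPPs (−1.29), with 11.79 in Bcl11a-/- GMPs and 11.85 in WT GMPs, while the other 8 differed by 0.17 to 0.27 in MPPs. For Rps4x it had 10.02 in Bcl11a-/- MPPs and 11.77 in WT MPPs (−1.75), with 11.90 in Bcl11a-/- GMPs and 11.85 in WT GMPs, while the other 4 differed by −0.14 to −0.10. Rpl9 ranged from −2.18 to −0.23, with 6 of its 8 probe sets over 2-fold lower. Rpl10, which joins the large subunit late in its assembly, ranged from −1.65 to 0.03, with 2 of 6 over 2-fold lower. Rps2 (−1.58 to 0.05), Rps15 (−1.35 to −0.13), Rpl24 (−1.46 to −0.43), Rpl7a (−1.01 to 0.05) and Rpl21 (−1.03 to 0.02) each had 1 probe set over 2-fold lower. Many ribosomal protein genes have processed copies in the genome, and whether a probe set lies on a copy, and where on a transcript it lies, is not stated in the sources used here.

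**Figure D3:**
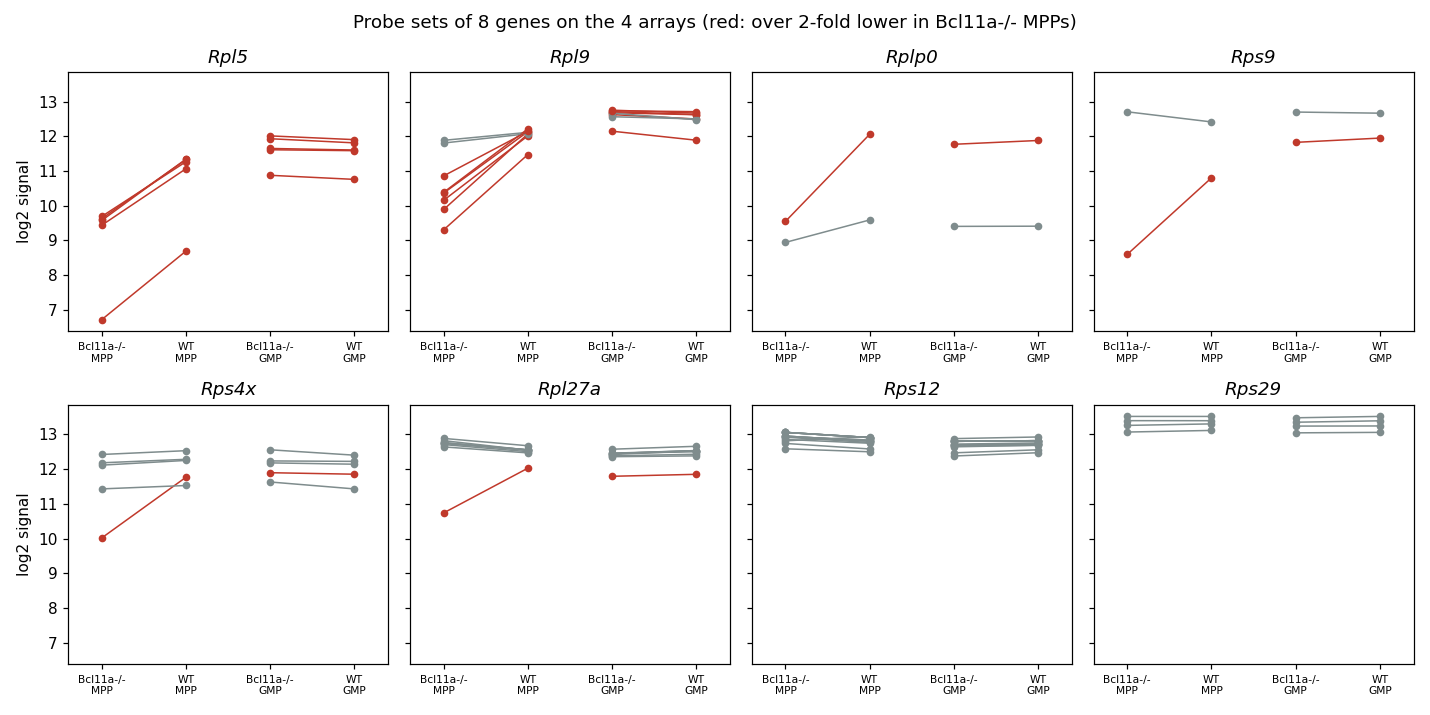
Log2 signal (y axis) of every probe set of 8 ribosomal protein genes on the 4 arrays (x axis), each line joining the values of a probe set in Bcl11a-/- and WT cells of 1 population. Red lines are probe sets over 2-fold lower in Bcl11a-/- MPPs, which are all 5 of Rpl5, 6 of 8 of Rpl9, 1 each of Rplp0, Rps9, Rps4x and Rpl27a, and none of Rps12 and Rps29.

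The study counted array changes over 2-fold, and that threshold was kept. Just inside it in MPPs was a probe set of Rpl7a, with 10.35 in Bcl11a-/- MPPs and 11.35 in WT MPPs (−1.01). Just outside it was a probe set of Rpsa, whose protein is also known as a laminin receptor, with 9.73 in Bcl11a-/- MPPs and 10.71 in WT MPPs (−0.99). Another probe set of Rpsa had 13.39 on each MPP array.

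The paralogs were not over 2-fold different in either population. Rps27l, a paralog of Rps27 that p53 can induce, had 10.93 in Bcl11a-/- MPPs and 11.14 in WT MPPs (−0.22), with 11.24 in Bcl11a-/- GMPs and 11.49 in WT GMPs. Rpl7l1 had 7.05 in Bcl11a-/- MPPs and 7.10 in WT MPPs, with 7.48 in Bcl11a-/- GMPs and 7.40 in WT GMPs. Rpl3l, found mainly in muscle, and Rpl10l and Rpl39l, found mainly in testis, had signals below the array median on every array. Rpl39l had the lowest GMP difference of any member at −0.74, with 3.28 in Bcl11a-/- GMPs and 4.02 in WT GMPs, and Rpl10l had the highest gene mean at 0.33, with 4.16 in Bcl11a-/- GMPs and 3.84 in WT GMPs. Rpl32l (0.32), Rps23rg1 (−0.46) and Rps4l (0.26) also had GMP differences away from 0, at signals between 5.57 and 6.70 in Bcl11a-/- GMPs. Among subunit genes the GMP mean was highest for Rpl12, Rps2 and Rpl30, at 0.29 each.

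Comparing populations within a genotype, 50 of 218 members (22.9%) were over 2-fold lower in MPPs than in GMPs among Bcl11a-/- arrays, against 5.91% of all probe sets, with a median of −0.32, and none was over 2-fold higher, against 3.08%. Among WT arrays 6 members (2.75%) were lower and none higher, against 2.67% and 1.55% of all probe sets, with a median of −0.01, which turned positive after centring by lowess (0.07) or quantile normalization anew (0.03). Among bright probe sets with no ribosomal protein symbol, 26.6% were over 2-fold lower in MPPs in Bcl11a-/- cells and 6.65% in WT cells. The mean signal that defines bright includes the GMP arrays, so probe sets high mainly in GMPs entered this set. That of Ms4a3, for example, differed by −5.61 in Bcl11a-/- cells and −3.05 in WT cells. These shares are thus partly set by how the probe sets were chosen. The 6 members in WT cells were probe sets of Rpl5 (−2.06), Rpl7a (−1.73), Rps3 (−1.35), Rps2 (−1.33), Rpsa (−1.28) and Rps9 (−1.15). The largest differences in Bcl11a-/- cells were for the same probe sets of Rpl5 (−4.16) and Rps9 (−3.23). These comparisons share arrays with the comparisons of genotypes.

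The 40 members that were over 2-fold lower in Bcl11a-/- MPPs had a median signal of 10.7 there, against 12.1 in WT MPPs, and 12.4 in both Bcl11a-/- GMPs and WT GMPs. Their median MPP minus GMP difference in WT cells was −0.13, and 30 of 40 were below 0. The other 178 members had medians of 12.4 in Bcl11a-/- MPPs and 12.6 on the other 3 arrays, and a median MPP minus GMP difference of 0.01 in WT cells. The WT MPP array enters both the choice of the 40 and this difference, so these values are given side by side only.

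The MPP difference of members went only weakly with signal or gene span. Over 209 probe sets of subunit genes, the WT GMP signal and the MPP difference had a Pearson r of 0.09 and a Spearman rho of 0.06. Over 54 subunit genes, genomic span and the MPP difference had an r of −0.17 and a rho of −0.12. The GMP difference went with the MPP difference more, in the opposite direction. Its r was −0.26 and its rho −0.44 over the 209 probe sets, and −0.35 and −0.43 over the 54 genes. Most GMP differences were close to 0, and what lies behind this was not tested. The points share arrays and, for probe sets, genes.

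Genes with related roles are given beside the shares of all genes in MPPs, 2.02% over 2-fold lower and 0.908% higher. They are also given beside the 16.9% of bright probe sets with another single symbol that were lower. That share is by probe set, and most of the ribosome biogenesis genes had signals under 10, so it is not matched to them. Fau, which encodes a small subunit protein as a fusion, had 9.84 in Bcl11a-/- MPPs and 12.01 in WT MPPs (−2.17), with 11.97 in Bcl11a-/- GMPs and 12.04 in WT GMPs. Of 16 translation factors and other genes whose mRNAs are known to have a TOP tract, 5 were over 2-fold lower in Bcl11a-/- MPPs, 0 were higher, and the median was −0.53. The 5 were Eef1b2 (−1.89), a subunit of the exchange factor of elongation factor eEF1A, the initiation factor subunits Eif3e (−1.31), Eif3h (−1.17) and Eif3k (−1.06), and Naca (−1.05), which binds nascent chains at the ribosome. Eef1a1 (−0.05) and Eef2 (−0.10), the elongation factors, differed little. Of 36 ribosome biogenesis genes, 2 were over 2-fold lower, Nhp2 (−1.55) and Fbl (−1.11), both of which encode parts of particles that modify ribosomal RNA, and the median was −0.28. In GMPs none of these genes was over 2-fold different, against 0.281% of all genes lower and 0.361% higher. Mycn, a transcription factor that drives growth genes, was higher in Bcl11a-/- MPPs, with 8.02 there and 6.24 in WT MPPs (1.78). The related Myc had a higher signal and differed little, with 12.64 in Bcl11a-/- MPPs and 12.43 in WT MPPs (0.21). The difference was 0.47 for Mdm2 and 0.07 for Mdm4.

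Families outside the cytosolic ribosome were lower at similar or greater frequency. In Bcl11a-/- MPPs, 16 of 85 probe sets for mitochondrial ribosomal proteins (18.8%, median −0.39), 18 of 46 for proteasome subunits (39.1%, median −0.83) and 9 of 39 for subunits of respiratory complex I (23.1%, median −0.48) were over 2-fold lower. In GMPs each of these counts was 0. As deposited, the share of ribosomal protein probe sets that were lower in MPPs was thus not above that of any of these families. Members and families were not matched in signal. The median of mean log2 signal was 12.5 for members, 8.30 for mitochondrial ribosomal proteins, 9.30 for proteasome subunits and 9.54 for complex I subunits. Shares of these families were not computed under the other scalings.

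**Figure D4:**
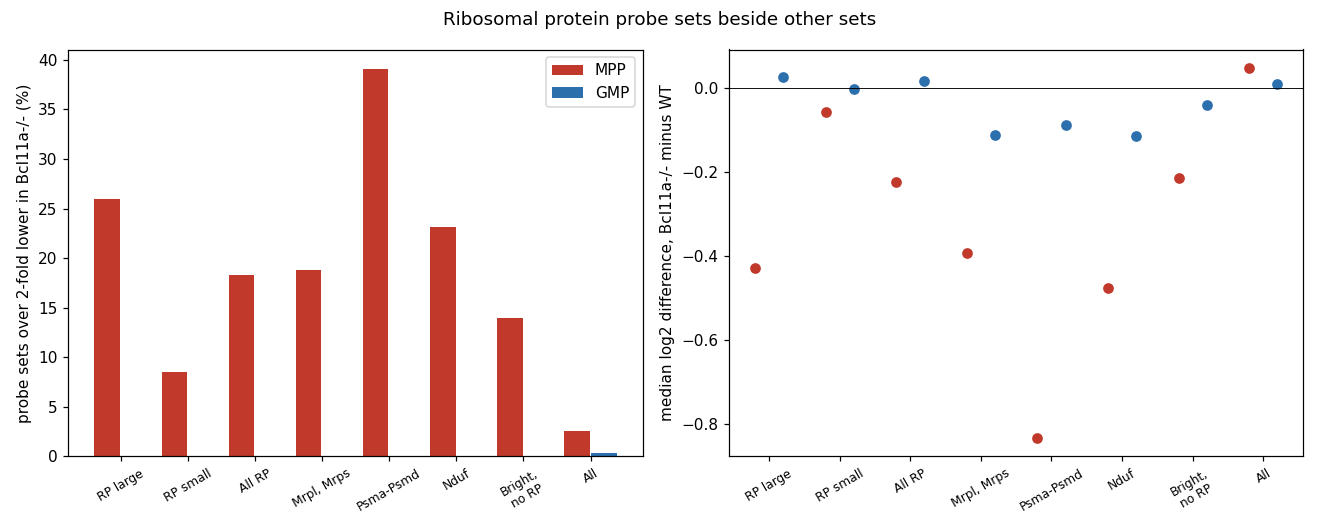
Share of probe sets over 2-fold lower in Bcl11a-/- cells (left, percent) and median log2 difference, Bcl11a-/- minus WT (right), for ribosomal protein (RP) members, mitochondrial ribosomal proteins (Mrpl, Mrps), proteasome (Psma to Psmd), complex I (Nduf), bright probe sets with no RP symbol and all probe sets, in MPPs (red) and GMPs (blue). All RP members (18.3%) lie near mitochondrial ribosomal proteins (18.8%) and below the proteasome (39.1%) in MPPs.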

How the data were processed

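RNA from sorted, pooled cells was amplified and labeled with biotin. The authors deposited 1 log2 value per probe set and array after RMA with quantile normalization in ArrayStar (version not stated in the sources used here). Over all rows the deposited log2 values are not equally distributed (SD 2.15 in Bcl11a-/- MPPs, 2.25 in WT MPPs, 2.32 in Bcl11a-/- GMPs and 2.34 in WT GMPs), and the step at which the authors normalized is not stated. Scanner values were not used. Precision is limited by the number of arrays, 1 per condition. Of 30177 rows, 1324 with the lowest IDs, none annotated, were set aside as controls. Symbols came from the platform annotation, and 0 members needed an update against RefSeq. A further 239 ribosomal protein probe sets with several symbols were left out. Of the named subunit genes, 23 had no probe set of their own, 16 of them being in shared ones, and they were not analysed here. Gene values are means over probe sets. Differences were Bcl11a-/- minus WT and MPP minus GMP, folds are 2 raised to them, and changes over 2-fold were counted beside those of all probe sets. No test was run. The members, gene lists and rules were chosen with earlier results of these data known. Genes were named by rule: the 12 lowest and 6 highest MPP means, the 4 lowest and 4 highest GMP means, all paralogs, stalk proteins, Mdm2 binders, red cell genes, Rpsa and Rack1 (no own probe set), members at the threshold, and genes whose probe sets differed by over 1. Rps6, Rps18, Rps29, Rpl30 and the genes named from other lists were chosen after their values were seen. Counting was tested on simulated data. Alternatives were a signal filter (6), a floor (5), median and lowess centring (span 0.3), quantile normalization anew, gene values, canonical or shared members, bright members (10) and 1.5-fold and 3-fold thresholds. Quantile normalization anew was done separately for each comparison, on the arrays compared. Python 3.11.15, numpy 2.4.6, pandas 2.3.3, statsmodels 0.14.6 and matplotlib 3.10.9 were used.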

Additional observations from a re-analysis of the deposited data

Results flagged for a closer look

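In 10 subunit genes the Bcl11a-/- minus WT difference was below 0 in MPPs and above 0 in GMPs, with over 1 between them, and the difference was not tested since there is 1 array per condition. The MPP difference minus the GMP difference was −1.81 for Rpl5, −1.56 for Rpl9, −1.27 for Rpl19, −1.18 for Rpl8, −1.22 for Rps3, −1.16 for Rps10, −1.06 for Rplp1, −1.04 for Rpl41, −1.18 for Rpl12 and −1.08 for Rps2. The GMP values behind these were small, between 0.00 for Rpl8 and 0.29 for Rpl12 and Rps2, so the MPP arrays supply most of each gap. Rplp0, with −1.58 in MPPs and −0.06 in GMPs, is not among them because its GMP difference was below 0. With quantile normalization anew, only Rpl5, Rpl9 and Rpl12 of these genes kept a gap over 1. Rpl8, for example, then had −0.77 in MPPs and 0.04 in GMPs.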

How the results depend on the processing

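The medians kept their sign under the alternatives except the WT MPP minus GMP median (−0.01). It was 0.07 with lowess centring and 0.03 with quantile normalization anew. GMP counts stayed at 0 at 2-fold and 3-fold. At 1.5-fold, 1 member was lower and 1 higher in GMPs (0.459% each), against 1.83% and 2.22% of all probe sets. The lower was Rpl39l (−0.74), with signals below the array median, and the higher was a probe set of Rps2 (0.63). The MPP median of −0.22 became −0.062 with lowess centring and −0.082 with quantile normalization anew. With 1 value per gene it was −0.34 for the mean of the probe sets and −0.17 for the brightest probe set. The MPP minus GMP median in Bcl11a-/- cells (−0.32) became −0.43 with median centring, −0.10 with lowess centring and −0.13 with quantile normalization anew; all probe sets had a median of 0.11 in that comparison. The count of 40 members over 2-fold lower in MPPs became 23 with quantile normalization anew, without a share of all probe sets beside it. It became 9 of 62 with gene means and 8 with the brightest probe set of each gene. With the shared probe sets added it was 77, and at 3-fold it was 15 (6.88%, against 0.7% of all probe sets). Gene means over 2-fold lower numbered 10 with median centring, 6 with lowess centring and 3 with quantile normalization anew, and Rpl5, Rplp0 and Rpl9 were the 3. Gene means above 0 in MPPs numbered 14 as deposited and 8, 18 and 20 under these scalings, so small differences have no settled direction. The causes were not tested. No paired analysis was possible because the labels carry no replicate numbers and no condition has a second array to form another pair. MPPs and GMPs of a genotype came from the same BM, but a fit with genotype and population and no interaction was not made. Such a fit would take the difference of the genotype effect between MPPs and GMPs as error. Counting identical probe sets once was chosen after seeing the data and moved no count or median past these limits.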
